A study of Mus musculus with 15 samples.

Results

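The wild-type response to cholesterol loading was followed in 8 of the series' 15 RNA-seq libraries of BV2, an immortalized mouse microglial line: 4 foamy libraries, whose cells had received 20 µg/ml of soluble cholesterol overnight, and 4 non-foamy libraries from cells in medium alone. Both groups were WT at Trem2. The study's methods describe a Cas9-expressing BV2 line grown from 1 clone, in which Trem2 was deleted; whether the WT libraries came from that clone is not stated in the sources used here. The soluble cholesterol was carried by methyl-β-cyclodextrin, and no library used here had received the carrier without its cargo, so the cholesterol and its carrier cannot be told apart here. The other 7 libraries, of Trem2-/- BV2 cells with and without cholesterol, entered the fit to estimate the spread between replicates. Nothing in the sources ties a library to a separate culture, and the p-values measure the spread between these libraries, which may be technical. The WT libraries held between 23538963 counts (non-foamy replicate 3) and 41683825 counts (non-foamy replicate 4). Levels are given as CPM, the read count of a gene relative to the size of its library, scaled between libraries by edgeR's trimmed mean of M-values, and a gene was called where its adjusted p in edgeR's quasi-likelihood test was under 0.05. A log2 fold change is foamy over non-foamy, and ± after it is the standard error (SE) of the fit.

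Cholesterol is sensed at the endoplasmic reticulum. When it is plentiful, the INSIG proteins hold SREBP2, the factor that turns on sterol synthesis and lipoprotein uptake, in an inactive form, while oxidized sterols made from cholesterol activate the liver X receptors (LXR), which turn on efflux pumps and apolipoproteins. Macrophages and microglia that take up more sterol than they export store it as esters in droplets, and these cells are called foamy. Sterol loading of macrophages is also known to touch inflammatory and lysosomal genes. Interferon, cytokine, iron, lysosome and cell cycle genes are described after the sterol genes.

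Markers of the labelled cell type were checked first. Of 14 microglia and macrophage markers, 13 had a mean of at least 1 CPM; the exception was C1qa, a complement subunit. The summed level of this list was 4711 to 5445 CPM in foamy and 4415 to 5411 CPM in non-foamy libraries. Homeostatic microglia markers were low, with a summed level of 8.21 to 10.2 CPM in foamy and 8.31 to 10.7 CPM in non-foamy libraries, and Sall1 and Siglech had no count in any of them. Lists for neurons, astrocytes, endothelium and T and B cells each summed to less than 1 CPM in every WT library, the fibroblast list had no count, and the oligodendrocyte list summed to between 1.23 and 2.57 CPM. Trem2, the deleted gene of the other genotype, was at 337, 372, 399.6 and 383 CPM in foamy replicates 1 to 4 and at 329, 345, 415 and 327 CPM in non-foamy replicates 1 to 4 (log2 fold change 0.08 ± 0.07 (SE), adjusted p = 0.658). The Trem2-/- libraries kept 214 to 232 CPM of reads on this gene, below every WT library.

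Of the 54390 genes counted, 14237 were tested, and 399 were called (2.8%), 237 higher in foamy cells (1.66%) and 162 lower (1.14%). The changes were small. Among called genes the median absolute log2 fold change was 0.33, against 0.12 over all tested genes, and 15 of the 399 reached an absolute log2 fold change of 1. All 4 foamy libraries lay above all 4 non-foamy libraries at 649 genes (4.56%) and below them at 734 genes (5.16%). The number called moved with single libraries, and libraries named below as left out were left out singly. With foamy replicates 1, 2, 3 and 4 left out in turn, 1.69%, 1.03%, 1.88% and 3.7% of genes were called, and with non-foamy replicates 1, 2, 3 and 4 left out, 1.31%, 2.03%, 3.15% and 1.55%. Leaving out foamy replicate 2 lowered the count most, to 147 genes, and leaving out foamy replicate 4 raised it most, to 527. Scaling by total counts alone turned the split to 179 higher and 249 lower. In the fit on the WT libraries only, 142 genes were called, all of them among the 399. Named genes that lost their call in that fit are listed near the end.

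The genes with the largest changes were sterol genes and genes of other functions. Where a called gene averaged 1 CPM or more and its groups did not overlap, the 15 with the largest rises were Il1a, Vash2, 1810034E14Rik, Sez6l2, Slc36a2, Abca1, Prdm1, Gng4, Rufy4, BC021767, Klhl38, Abcg1, 5830418P13Rik, Selenop and Gm15513, with log2 fold changes from 1.04 to 0.69. The 15 with the largest falls were Etv4, Idi1, Msmo1, Fdft1, Cyp51, Hsd17b7, Mvd, Il1r2, Fdps, St3gal6, Nsdhl, Gm3571, Ccl9, Acat2 and Hmgcs1, from -1.09 to -0.58. Of these 30, Vash2, Gng4, Klhl38, Gm15513, Etv4 and St3gal6 lost their call without non-foamy replicate 3, with adjusted p of 0.08, 0.0537, 0.0537, 0.0537, 0.0825 and 0.122. Prdm1, the transcription factor BLIMP-1, had 2.005, 2.396, 2.63 and 1.63 CPM in foamy and 1.19, 1.26, 1.23 and 1.29 CPM in non-foamy libraries (log2 fold change 0.80 ± 0.18 (SE), adjusted p = 0.0148), and it lost its call without foamy replicate 2 or 3, or non-foamy replicate 1 (adjusted p up to 0.0658). The call of 1810034E14Rik was lost without foamy replicate 2 or non-foamy replicate 4 (adjusted p up to 0.0677), and that of 5830418P13Rik without foamy replicate 1 or 2, or non-foamy replicate 1, 2 or 4 (adjusted p up to 0.0838).

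Selenop encodes the secreted selenoprotein that carries selenium between cells. It stood at 217, 274, 294 and 278 CPM in foamy replicates 1 to 4 and at 154, 159.6, 181 and 157 CPM in non-foamy replicates 1 to 4. Each foamy library was above each non-foamy one (log2 fold change 0.71 ± 0.09 (SE), adjusted p = 4.92e-05), and the call held with any single WT library left out. Rufy4, a RUN and FYVE domain protein of the autophagy pathway, had 22.5, 25.4, 28.8 and 19.9 CPM in foamy and 13.98, 15.2, 13.6 and 13.9 CPM in non-foamy libraries (log2 fold change 0.77 ± 0.09 (SE), adjusted p = 4.39e-05). Several of the genes named here share sequence with other loci, so that reads may be split between them. More than 20% of the 50-base words of BC021767, Gm3571, Phgdh, Acat2, Fdps, H1f4, H4c9, Ccnb1, Tmem97, Ifi204, Ctsd and Ftl1 occur in transcripts of other genes, and 65.4% of the exonic bases of Klhl38 overlap another gene. Counting by strand is not given in the sources used here, so reads of overlapping genes cannot be told apart.

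**Figure D1:**
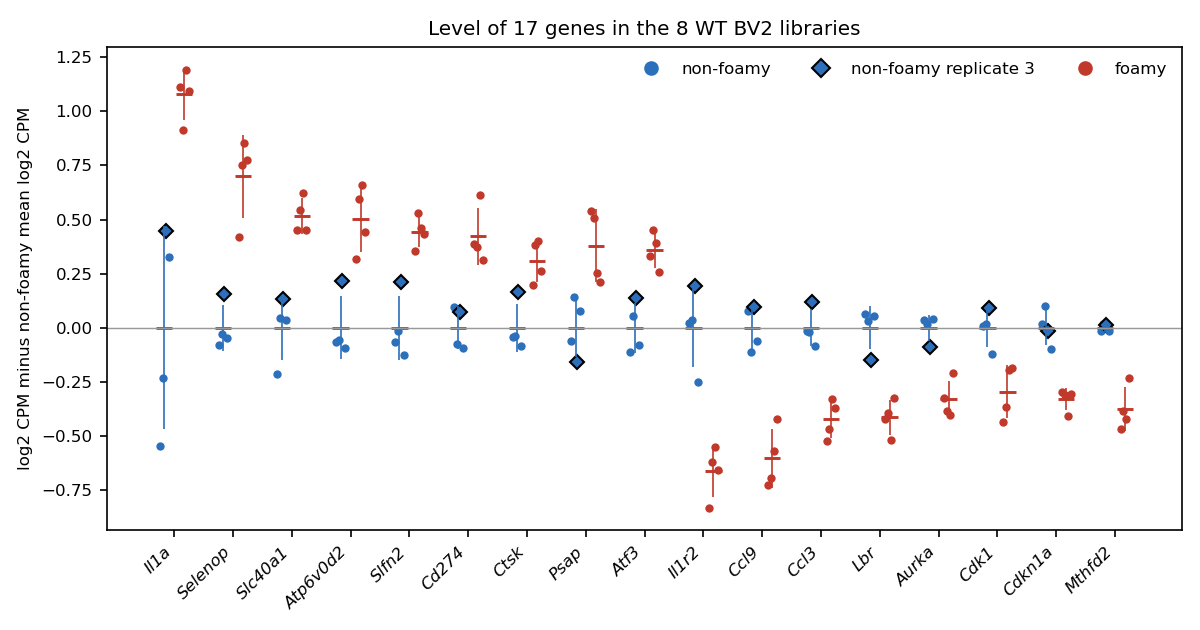
Level of 17 genes in each of the 8 WT BV2 libraries, as log2 CPM minus the mean log2 CPM of the 4 non-foamy libraries; horizontal bars are group means and vertical bars SD (n = 4), and the outlined diamond is non-foamy replicate 3. The foamy and non-foamy points do not overlap for any of the 17 genes, and Il1a has the widest spread among non-foamy libraries.

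Most of the falls named above were of sterol synthesis genes. Of 18 tested genes of the pathway 14 were called, all lower, against 1.14% of all tested genes called lower. The list median was -0.60, against 0.01 over all tested genes. In 16 of 18 every foamy library lay below every non-foamy library, against 5.16% of all genes. Idi1 encodes the isomerase that makes dimethylallyl diphosphate from isopentenyl diphosphate. It was at 24.1, 26.4, 29.7 and 28.1 CPM in foamy replicates 1 to 4 and at 51.1, 52.7, 55.6 and 51.1 CPM in non-foamy replicates 1 to 4 (log2 fold change -0.96 ± 0.09 (SE), adjusted p = 9.95e-07; GRCm38 chromosome 13, 8885501 to 8892451). Hmgcs1, the synthase that makes HMG-CoA, was at 63.6, 61.4, 61.2 and 67.5 CPM in foamy and 92.8, 96.8, 90.8 and 99.3 CPM in non-foamy libraries (log2 fold change -0.58 ± 0.06 (SE), adjusted p = 1.78e-05). Among the genes of sterol sensing and uptake 4 of 13 were called, all lower, against the same 1.14% of all genes. Insig1, one of the proteins that hold SREBP2 back and itself an SREBP2 target, had 52.3, 55.1, 52.1 and 55.7 CPM in foamy and 72.9, 77.4, 79.7 and 71.8 CPM in non-foamy libraries (log2 fold change -0.49 ± 0.06 (SE), adjusted p = 4.39e-05). Tmem97, which binds the cholesterol transporter NPC1, followed with a log2 fold change of -0.41 ± 0.06 (adjusted p = 0.000438).

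The LXR and efflux list was called in the other direction: 7 of 15 tested genes were called, all higher, against 1.66% of all tested genes. The list median was 0.35, and the count stayed between 5 and 7 with any single WT library left out. Abca1, the pump that loads cholesterol onto lipid-poor apolipoproteins, was at 74.6, 59.4, 53.8 and 54.98 CPM in foamy and 34.8, 36.8, 28.9 and 36.5 CPM in non-foamy libraries (log2 fold change 0.82 ± 0.10 (SE), adjusted p = 3.00e-05). Arl4c, a small GTPase and known LXR target, was at 82.4, 82.3, 74.7 and 79.2 CPM in foamy and 54.98, 58.3, 59.3 and 62.7 CPM in non-foamy libraries (log2 fold change 0.44 ± 0.06 (SE), adjusted p = 0.000267). Mylip encodes the ubiquitin ligase IDOL, which marks lipoprotein receptors for breakdown. Its level was 31.1, 30.8, 29.7 and 27.1 CPM in foamy and 20.3, 22.3, 19.98 and 22.8 CPM in non-foamy libraries (log2 fold change 0.47 ± 0.07 (SE), adjusted p = 0.00065). Cyp27a1, the enzyme that makes 27-hydroxycholesterol, rose by a log2 fold change of 0.35 ± 0.07 (adjusted p = 0.0059). Apoe rose by a log2 fold change of 0.31 ± 0.07 (adjusted p = 0.0131), a call lost without foamy replicate 2, or non-foamy replicate 1 or 4 (adjusted p up to 0.0659). Apoc4 rested on 12 to 42 counts per library and lost its call without foamy replicate 3, or non-foamy replicate 1, 2 or 4 (adjusted p up to 0.085). Nr1h3, which encodes LXRα, was at a log2 fold change of 0.27 ± 0.09 and was not called (adjusted p = 0.124).

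Promoter sequence of Hmgcs1 and Abca1 is shown because these hold the letters of a sterol response element, which SREBP2 binds, and of paired half-sites, which LXR binds. The windows span 250 bases before to 50 after an annotated start (RefSeq, GRCm38.p6), the letters were searched on both strands, and only bases before the start are printed, with capitals on the matches. In Hmgcs1 the capitals mark the sterol response element TCACNCCAC and CCAAT boxes (CCAAT, or ATTGG on the other strand), and in Abca1 a pair of GGTNA half-sites, read on the opposite strand, with 5 bases between them.
Hmgcs1: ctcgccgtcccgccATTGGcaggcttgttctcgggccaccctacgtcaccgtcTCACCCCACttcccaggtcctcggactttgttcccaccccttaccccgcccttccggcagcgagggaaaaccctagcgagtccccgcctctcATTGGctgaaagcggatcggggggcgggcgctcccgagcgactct
Abca1: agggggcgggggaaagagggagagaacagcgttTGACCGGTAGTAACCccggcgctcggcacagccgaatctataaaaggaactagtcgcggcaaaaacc
The stretches are Hmgcs1 chr13:119690161-119690350 on the forward strand and Abca1 chr4:53159896-53159995 on the reverse strand.

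Of the 18 sterol synthesis genes, 15 had a promoter window, and 14 of the 15 held CCAAT, against 43.2% of the 9754 tested genes with a window. The sterol response element was found in 1 of the 15, Hmgcs1, and in 1.35% of all genes with a window. The paired half-sites were found in 2 of 12 LXR and efflux genes, Abca1 and Srebf1, and in 0.636% of all. These matches describe letters, and no binding was measured.

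Lipid storage and fatty acid genes held calls in both directions, where 1.66% of all tested genes were called higher and 1.14% lower. The fatty acid synthesis list had 1 call of 11, Elovl6, the elongase of C16 fatty acids, which was at 33.5, 31.8, 30.5 and 35.7 CPM in foamy and 45.4, 46.1, 39.4 and 43.9 CPM in non-foamy libraries (log2 fold change -0.41 ± 0.08 (SE), adjusted p = 0.00534). In the cholesterol ester and droplet list 2 of 12 were called, both higher. Soat1, which esterifies cholesterol for storage, was at 435, 431, 396 and 393 CPM against 353, 364, 338 and 372 CPM (log2 fold change 0.21 ± 0.06 (SE), adjusted p = 0.0428), a call lost without foamy replicate 1, 2 or 3, or non-foamy replicate 1, 2, 3 or 4 (adjusted p up to 0.159). Nceh1, the neutral hydrolase that frees cholesterol from its ester, rose by a log2 fold change of 0.23 ± 0.06 (adjusted p = 0.0261) and lost its call without foamy replicate 2 or 3, or non-foamy replicate 1 or 4 (adjusted p up to 0.104). Lipa, the lysosomal acid lipase that frees cholesterol from lipoprotein esters, was at a log2 fold change of 0.21 ± 0.06 and missed the threshold (adjusted p = 0.0545). No gene of the 15 tested in the PPAR and fatty acid oxidation list was called by edgeR, 3 had an unadjusted p under 0.05, DESeq2 called 1 and voom called 2. Its members Cd36 and Fabp4 stood at log2 fold changes of -0.33 ± 0.09 (adjusted p = 0.0547) and 0.23 ± 0.08 (adjusted p = 0.148). Of 11 scavenger and lipoprotein receptors, Colec12, a scavenger receptor with a C-type lectin domain, was called: it had 575, 647, 651 and 602 CPM in foamy and 487, 468, 544 and 469 CPM in non-foamy libraries (log2 fold change 0.33 ± 0.07 (SE), adjusted p = 0.0101), a call lost without foamy replicate 2 (adjusted p = 0.0543).

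**Figure D2:**
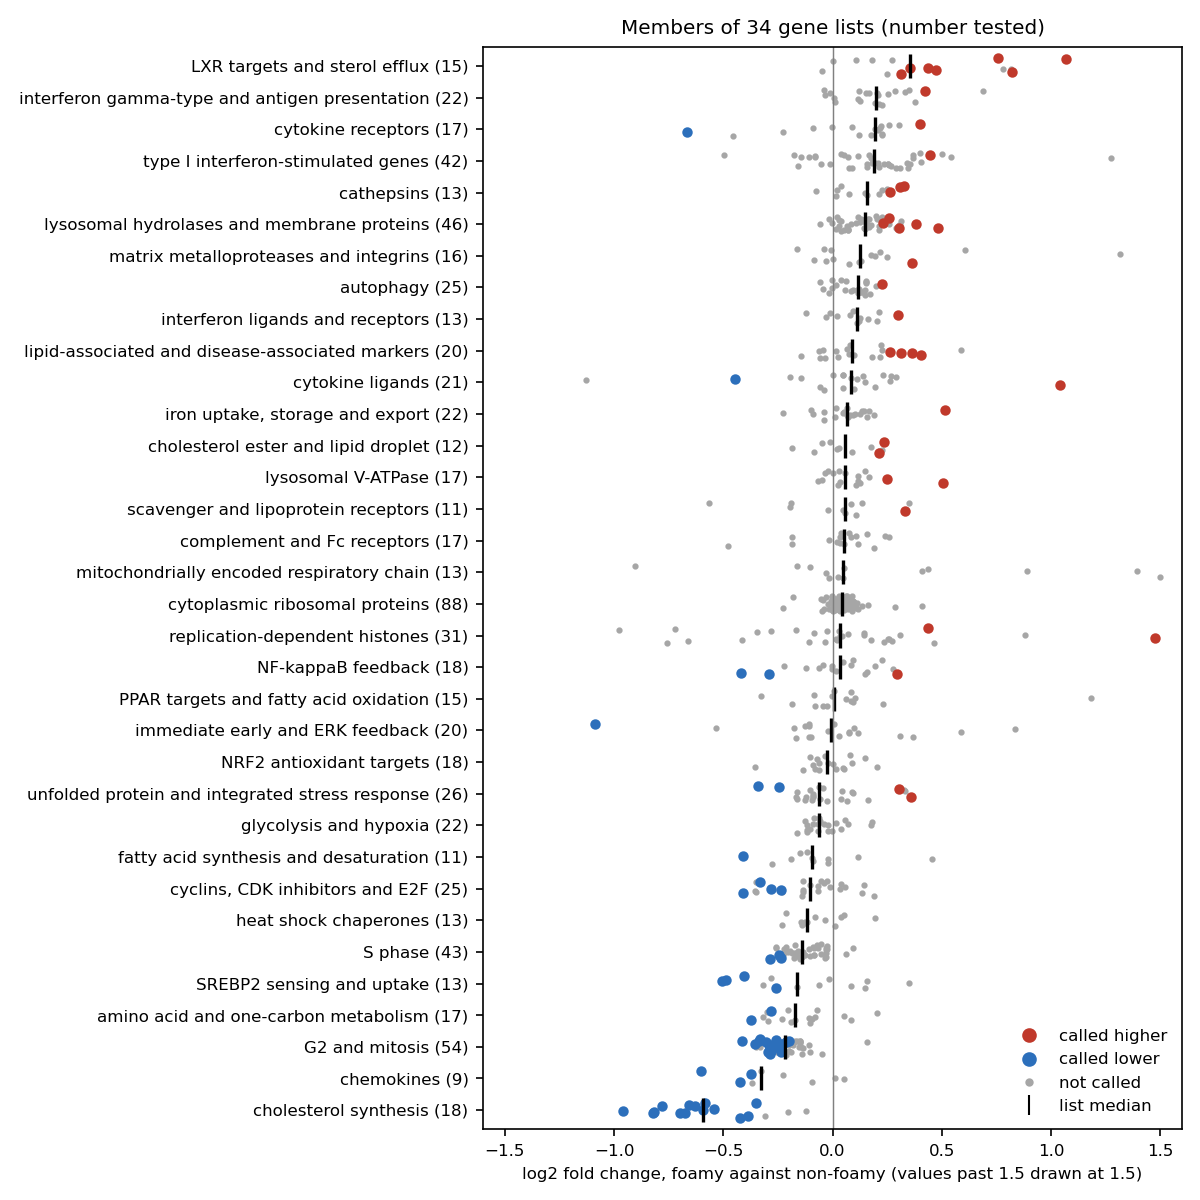
Log2 fold change, foamy against non-foamy, of each tested member of 34 gene lists in the WT BV2 libraries, with the number tested in parentheses; red points were called higher, blue points called lower, grey points were not called, and the black tick is the list median. Sterol synthesis, chemokines and G2 and mitosis have the lowest medians, and LXR targets the highest.

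Few interferon genes passed the test. In the list of type I interferon-stimulated genes 1 of 42 tested members was called, higher, where 1.66% of all tested genes were called higher. The list median was 0.19 against 0.01 over all tested genes, with 33 members above 0 and 9 below. That gene, Slfn2, a Schlafen family member needed for T cell and monocyte quiescence, was at 43.7, 49.2, 46.99 and 46.1 CPM in foamy replicates 1 to 4 and 32.6, 33.7, 39.5 and 31.2 CPM in non-foamy replicates 1 to 4. Its groups did not overlap (log2 fold change 0.44 ± 0.07 (SE), adjusted p = 0.00172), and the call held with any single WT library left out. Rsad2, the antiviral enzyme viperin, had 5.27, 7.26, 6.66 and 5.49 CPM in foamy and 3.32, 5.64, 5.63 and 4.35 CPM in non-foamy libraries, which overlapped, with a log2 fold change of 0.40 ± 0.15 (adjusted p = 0.175). Oas3, a sensor of double-stranded RNA, stood at a log2 fold change of 0.40 ± 0.14 (adjusted p = 0.115), and Ifi204, a DNA sensor of the AIM2-like family, at 0.23 ± 0.09 (adjusted p = 0.156). In 2 of the 42 the foamy libraries all lay above the non-foamy ones, a share near the 4.56% of all genes. The list had 3 calls without non-foamy replicate 4.

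The interferon-gamma and antigen presentation list had the same shape: 19 of 22 tested members had a positive log2 fold change, the median was 0.20, and 1 was called. Cd274, which encodes the checkpoint ligand PD-L1, was at 18.5, 18.3, 21.6 and 17.6 CPM in foamy and 15.1, 13.4, 14.9 and 13.2 CPM in non-foamy libraries (log2 fold change 0.42 ± 0.09 (SE), adjusted p = 0.0113), and its call held in each fit with 1 WT library left out (adjusted p up to 0.0489). Irf8, the myeloid transcription factor, stood at a log2 fold change of 0.21 ± 0.07 (adjusted p = 0.107). Of 13 interferon ligands, receptors and signalling genes, Il10rb was called. This subunit serves the IL-10 and interferon-lambda receptors, and had 80.4, 80.8, 79.2 and 76.2 CPM in foamy and 63.7, 60.9, 64.3 and 68.6 CPM in non-foamy libraries (log2 fold change 0.30 ± 0.06 (SE), adjusted p = 0.0134), a call lost without foamy replicate 2 (adjusted p = 0.0589). The type I receptor subunit Ifnar1 and the interferon-gamma receptor subunit Ifngr2 were at log2 fold changes of 0.21 ± 0.07 and 0.16 ± 0.06 and missed the threshold (adjusted p = 0.0886 and 0.134). Ifnb1 and Ifna4, genes of type I interferons themselves, were too low to be tested. Without non-foamy replicate 3, where 1.87% of all genes were called higher and 1.28% lower, each of the 3 lists had 1 call and the medians were 0.24, 0.19 and 0.07. With the trends of each library on exonic length and GC content removed, where 4.02% of all genes were called higher and 3.75% lower, the calls were 2, 4 and 3, all higher. Of 31 type I interferon-stimulated genes with a promoter window, 14 held the interferon-stimulated response element, searched as GAAA repeated after a gap of 2 bases, against 3.804% of all. Slfn2 was not among the 14.

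Cytokine genes were called in both directions and chemokine genes in the downward one, where 1.66% of all tested genes were called higher and 1.14% lower. Il1a, which encodes the alarmin interleukin-1α, had the largest rise among the genes ranked by size above: 1.88, 1.64, 1.99 and 1.86 CPM in foamy replicates 1 to 4 and 0.596, 0.741, 1.19 and 1.09 CPM in non-foamy replicates 1 to 4 (log2 fold change 1.04 ± 0.19 (SE), adjusted p = 0.00397; GRCm38 chromosome 2, 129299610 to 129309972). Every foamy library lay above every non-foamy one, at 23 to 78 counts per library, and the call held with any single WT library left out but not in the fit on the WT libraries only (adjusted p = 0.0788). Il1r2, the decoy receptor that binds interleukin-1 without signalling, went the other way, with 13.4, 15.5, 16.3 and 15.1 CPM in foamy and 24.1, 24.4, 27.2 and 20.04 CPM in non-foamy libraries (log2 fold change -0.67 ± 0.10 (SE), adjusted p = 0.000379), and it too was called in all 8 fits with 1 WT library left out. These were the called members of opposite sign in the interleukin-1 system. Among 21 tested ligands 2 were called, Il1a and Tnfsf9, the ligand of the costimulatory receptor 4-1BB, which was at 11.4, 9.58, 9.91 and 9.47 CPM against 13.2, 13.9, 13.6 and 14.3 CPM (log2 fold change -0.45 ± 0.10 (SE), adjusted p = 0.0129), a call lost without foamy replicate 2 (adjusted p = 0.0632). Among 17 tested receptors 2 were called, Il1r2 and Csf2rb, the shared β-subunit of the GM-CSF, IL-3 and IL-5 receptors, at 187, 164, 145 and 140.2 CPM in foamy and 122, 128, 111 and 119 CPM in non-foamy libraries (log2 fold change 0.40 ± 0.08 (SE), adjusted p = 0.00565). Csf1r, the receptor on which microglia depend, was at a log2 fold change of 0.22 ± 0.08 (adjusted p = 0.172), and Tnfrsf1b, a receptor for TNF, at 0.26 ± 0.08 (adjusted p = 0.0759). Without foamy replicate 4 the receptors called higher were 2. Grn, which encodes the lysosomal and secreted progranulin, stood at a log2 fold change of 0.29 ± 0.10 (adjusted p = 0.123), Il15 at 0.23 ± 0.10 (adjusted p = 0.268) and Spp1, osteopontin, at -0.14 ± 0.07 (adjusted p = 0.343).

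Of 9 chemokines tested 3 were called, all lower, with a list median of -0.33, and 3 of 9 were also called without non-foamy replicate 3 and with the length and GC trends removed. Ccl9, a chemoattractant for myeloid cells, was at 41.5, 42.5, 46.3 and 51.3 CPM in foamy replicates 1 to 4 and 72.6, 63.6, 73.6 and 65.8 CPM in non-foamy replicates 1 to 4 (log2 fold change -0.60 ± 0.07 (SE), adjusted p = 5.22e-05; GRCm38 chromosome 11, 83572919 to 83578636). Ccl3 and Ccl4 encode macrophage inflammatory proteins. Ccl3 was at 119, 123, 136 and 132 CPM in foamy and 169, 168, 185 and 161 CPM in non-foamy libraries (log2 fold change -0.42 ± 0.06 (SE), adjusted p = 0.000319). Ccl4 was at 21.9, 21.7, 24.2 and 24.7 CPM against 28.1, 29.8, 32.8 and 29.3 CPM (log2 fold change -0.37 ± 0.09 (SE), adjusted p = 0.0199), a call lost without foamy replicate 1 or 2 (adjusted p up to 0.09). In all 3 the foamy libraries lay below the non-foamy ones without overlap, and all 3 genes lie in the same cluster on chromosome 11. Ccl2, the monocyte chemoattractant of the same chromosome, had 2.15, 2.298, 1.895 and 2.17 CPM against 2.49, 2.25, 3.26 and 3.03 CPM and was not called (adjusted p = 0.43). In the NF-κB feedback list 3 of 18 were called, and in the immediate early and ERK feedback list 1 of 20, against 2.8% of all tested genes. Ier3 and Tnip3, a stress-response gene and an inhibitor of NF-κB signalling, fell by 0.29 and 0.42 on the log2 scale (adjusted p = 0.00934 and 0.0127), and Tnfaip2, a TNF-induced gene, rose by a log2 fold change of 0.29 ± 0.08 (adjusted p = 0.041). Ier3 lost its call without foamy replicate 2 (adjusted p = 0.0528), Tnip3 without non-foamy replicate 1 (adjusted p = 0.0524) and Tnfaip2 without foamy replicate 1 or 2, or non-foamy replicate 1, 2, 3 or 4 (adjusted p up to 0.163). Tnfaip3, the deubiquitinase A20, was at a log2 fold change of 0.28 ± 0.10 (adjusted p = 0.13). Etv4, an ETS factor downstream of ERK, was the single call of 20 in the immediate early and ERK feedback list, at 1.84, 1.08, 0.948 and 1.49 CPM in foamy and 2.75, 2.899, 3.21 and 2.59 CPM in non-foamy libraries (log2 fold change -1.09 ± 0.29 (SE), adjusted p = 0.0476), and lost its call without foamy replicate 2, 3 or 4, or non-foamy replicate 1, 2, 3 or 4 (adjusted p up to 0.168).

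Among iron genes the call was the exporter. Slc40a1 encodes ferroportin, the exporter of cellular iron, and was at 28.5, 30.4, 32.1 and 28.5 CPM in foamy replicates 1 to 4 and 17.9, 21.5, 22.9 and 21.4 CPM in non-foamy replicates 1 to 4 (log2 fold change 0.52 ± 0.08 (SE), adjusted p = 0.000332; GRCm38 chromosome 1, 45908068 to 45926523). The groups did not overlap, and the call held with any single WT library left out (adjusted p up to 0.0027). It was the only call among the 22 tested genes of iron uptake, storage and export, whose median was 0.07. Over all tested genes 2.8% were called. The ferritin subunit genes Fth1 and Ftl1 were at log2 fold changes of 0.05 ± 0.09 (adjusted p = 0.852) and 0.01 ± 0.08 (adjusted p = 0.957), with Fth1 at 4625, 5479, 6017 and 5997 CPM in foamy and 4663, 5133, 6519 and 5069 CPM in non-foamy libraries, and Tfrc, the transferrin receptor, at 0.07 ± 0.07 (adjusted p = 0.714). Hmox1, which frees iron from haem, stood at a log2 fold change of 0.08 ± 0.06, Ireb2, which encodes the iron regulatory protein IRP2, at 0.13 ± 0.06, and Slc11a1, the phagosomal metal transporter, at 0.13 ± 0.07 (adjusted p = 0.547, 0.309 and 0.372). No NRF2 antioxidant target of 18 tested was called by edgeR, 2 had an unadjusted p under 0.05, DESeq2 called 1 and voom called 1. Beside Slc40a1, Flvcr1, a transporter first described as a haem exporter and outside the iron list, was named after its values were seen: 63.9, 60.9, 58.5 and 54.2 CPM in foamy and 45.6, 48.4, 46.7 and 46.1 CPM in non-foamy libraries (log2 fold change 0.35 ± 0.07 (SE), adjusted p = 0.00435).

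Called lysosomal genes were all higher in foamy cells. Of 46 tested genes in the list of hydrolases and lysosomal membrane proteins 43 had a positive log2 fold change. From this list 5 were called, all higher, and the median was 0.15. The list also holds the transcription factor genes Tfeb, Tfe3 and Mitf, none of which was called. Over all tested genes 1.66% were called higher. In 15 of the 46 every foamy library lay above every non-foamy library, against 4.56% of all genes. Psap, the precursor of the saposins that present sphingolipids to their hydrolases, was at 1336, 1308, 1097 and 1065 CPM in foamy and 881, 1015, 825 and 969 CPM in non-foamy libraries (log2 fold change 0.38 ± 0.08 (SE), adjusted p = 0.0135). Sgpl1, the sphingosine-1-phosphate lyase, which sits in the endoplasmic reticulum and not in the lysosome, was at 193, 193, 174 and 172 CPM against 149, 155, 136 and 154 CPM (log2 fold change 0.30 ± 0.06 (SE), adjusted p = 0.0059) and was called in all 8 fits with 1 WT library left out. Galc and Hexa, which cleave galactosylceramide and GM2 ganglioside, rose by log2 fold changes of 0.26 ± 0.06 and 0.23 ± 0.06 (adjusted p = 0.0262 and 0.0385), and Ids, the iduronate sulfatase, by 0.48 ± 0.12 (adjusted p = 0.0347). Psap lost its call without foamy replicate 2 or non-foamy replicate 1 (adjusted p up to 0.0763), Galc without foamy replicate 1 or 2, or non-foamy replicate 2 or 4 (adjusted p up to 0.123), Hexa without foamy replicate 1 or 2, or non-foamy replicate 1 or 4 (adjusted p up to 0.164) and Ids without foamy replicate 1, 2 or 3, or non-foamy replicate 1, 2 or 4 (adjusted p up to 0.12). The count of called members of this list includes Sgpl1 in each of the following fits. It was 2 without foamy replicate 1 and 1, Sgpl1 alone, without foamy replicate 2. It was 2 without non-foamy replicate 1, 3 without non-foamy replicate 2, 10 without non-foamy replicate 3 and 2 without non-foamy replicate 4. With the length and GC trends removed, 19 of the 46 were called, all higher. In the fit on the WT libraries only it was 1, again Sgpl1.

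The proton pump that acidifies the lysosome had 2 of 17 genes called, both higher, where 1.66% of all tested genes were called higher. Atp6v0d2, the d2 subunit typical of macrophages and osteoclasts, was at 208, 253, 264 and 227 CPM in foamy replicates 1 to 4 and 159.9, 160.5, 194 and 157 CPM in non-foamy replicates 1 to 4, without overlap (log2 fold change 0.51 ± 0.08 (SE), adjusted p = 0.00123), and the call held with any single WT library left out. Atp6v1b2 rose by a log2 fold change of 0.25 ± 0.06 (adjusted p = 0.0192), a call lost without foamy replicate 2, or non-foamy replicate 1 or 4 (adjusted p up to 0.104), and Atp6v1a stood at 0.16 ± 0.05 (adjusted p = 0.109). The list median was 0.06, and 13 of 17 members had a positive sign. The count of called genes was 1 without foamy replicate 2, 1 without non-foamy replicate 1 and 1 without non-foamy replicate 4. Of 13 cathepsins 3 were called, all higher, against the same 1.66% of all genes, with a list median of 0.16. Ctsk, the collagen-cleaving cathepsin K, was at 3251, 3695, 3748 and 3398 CPM in foamy and 2756, 2760.0, 3179 and 2678 CPM in non-foamy libraries (log2 fold change 0.31 ± 0.07 (SE), adjusted p = 0.017). Ctsb rose by a log2 fold change of 0.27 ± 0.06 and Ctsh by 0.33 ± 0.08 (adjusted p = 0.0177 and 0.0226), while Ctsd and Ctss were at 0.23 ± 0.06 and 0.25 ± 0.08 (adjusted p = 0.0536 and 0.0748). The Ctsk and Ctsh calls were lost without foamy replicate 2 or 3, or non-foamy replicate 1, 2 or 4 (adjusted p up to 0.0809 and 0.1), and the Ctsb call without foamy replicate 2, or non-foamy replicate 1 or 4 (adjusted p up to 0.0935). The cathepsin count was 0 without foamy replicate 2, 1 without foamy replicate 3, 0 without non-foamy replicate 1, 1 without non-foamy replicate 2 and 0 without non-foamy replicate 4. In the fit on the WT libraries only edgeR called no cathepsin, with 7 at an unadjusted p under 0.05. DESeq2 and voom, which were fitted to all 15 libraries, each called 5, where edgeR on all libraries called 3. Gpnmb, a membrane glycoprotein of lipid-laden macrophages, was at 5668, 5388, 4705 and 4542 CPM in foamy and 3766, 4102, 3489.5 and 3989 CPM in non-foamy libraries (log2 fold change 0.40 ± 0.08 (SE), adjusted p = 0.0061), and Timp2, an inhibitor of matrix metalloproteases, rose by a log2 fold change of 0.37 ± 0.07 (adjusted p = 0.00411). With Apoe and Ctsb they were the 4 calls, all higher, among 20 markers of lipid-associated and disease-associated cells, a count that was 2 without foamy replicate 2, 2 without non-foamy replicate 1 and 2 without non-foamy replicate 4. In the autophagy list 1 of 25 was called, against 2.8% of all tested genes. This was Atg13 of the initiation complex, at a log2 fold change of 0.23 ± 0.06 (adjusted p = 0.0318). The call was lost without foamy replicate 1, 2 or 3, or non-foamy replicate 1, 3 or 4 (adjusted p up to 0.124). The letters GTCACGTG are a form of the CLEAR element bound by TFEB. In the hydrolase list 9 of 39 genes with a promoter window held them, against 4.85% of all. No window of the 5 called members held them.

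Calls among mitotic genes were falls. Of 54 tested genes of G2 and mitosis 53 had a negative log2 fold change, 20 were called, all lower, and the median was -0.22. Over all tested genes 1.14% were called lower. In 34 of the 54 every foamy library lay below every non-foamy library, against 5.16% of all genes. Lbr, the lamin B receptor of the inner nuclear membrane, which also has sterol reductase activity, was at 39.7, 40.4, 37.02 and 42.4 CPM in foamy replicates 1 to 4 and 55.4, 54.2, 47.9 and 55.1 CPM in non-foamy replicates 1 to 4 (log2 fold change -0.42 ± 0.07 (SE), adjusted p = 0.00228; GRCm38 chromosome 1, 181815335 to 181843046). Aurka, the kinase of spindle poles, was at 85.01, 81.6, 80.5 and 92.1 CPM against 109, 108, 100.2 and 109 CPM (log2 fold change -0.33 ± 0.06 (SE), adjusted p = 0.00249). Tpx2, its activator on the spindle, fell by 0.29 and the centrosomal kinase Nek2 by 0.35 on the log2 scale (adjusted p = 0.00595 and 0.00596). These 4 were called in all 8 fits with 1 WT library left out. Cdk1, the kinase that drives entry into mitosis, was at 159, 167, 187 and 189 CPM in foamy and 216, 217, 229 and 197 CPM in non-foamy libraries (log2 fold change -0.29 ± 0.06 (SE), adjusted p = 0.0128), a call lost without foamy replicate 2 (adjusted p = 0.0677). Cenpf, a kinetochore protein, stood at a log2 fold change of -0.29 ± 0.06 (adjusted p = 0.0103), a call lost without foamy replicate 2 or non-foamy replicate 1 (adjusted p up to 0.0611). The count of called mitotic genes fell by more than 1.5 times with several libraries left out: it was 8 without foamy replicate 1, 4 without foamy replicate 2, 6 without non-foamy replicate 1, 12 without non-foamy replicate 2 and 11 without non-foamy replicate 4. It was 16 without non-foamy replicate 3, and with the length and GC trends removed it was 40 lower and 1 higher, Gas2l3. In the fit on the WT libraries only it was 5. The list median kept its sign, between -0.24 and -0.20, in every fit run.

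Genes of S phase leaned the same way with fewer calls: 41 of 43 had a negative log2 fold change, and the median was -0.14. Of the 43, 3 were called, all lower, against 1.14% of all tested genes called lower. Hells, a chromatin remodeler of replicating cells, was at 119, 123, 129 and 139.7 CPM in foamy and 150.1, 144, 152 and 155 CPM in non-foamy libraries (log2 fold change -0.23 ± 0.06 (SE), adjusted p = 0.0286). Rrm2, the regulated subunit of ribonucleotide reductase, and Nasp, a histone chaperone, fell by 0.29 and 0.24 on the log2 scale (adjusted p = 0.0434 and 0.0458). In the fit on the WT libraries only edgeR called none of the S phase genes, with 15 at an unadjusted p under 0.05. Fitted to all 15 libraries, DESeq2 called 7 and voom 9, where edgeR called 3. The edgeR calls of Hells, Rrm2 and Nasp each rested on several libraries. Hells lost its call without foamy replicate 1, 2 or 3, or non-foamy replicate 1 or 4 (adjusted p up to 0.114), Rrm2 without foamy replicate 1, 2 or 3, or non-foamy replicate 1, 2 or 4 (adjusted p up to 0.147) and Nasp without foamy replicate 1, 2 or 3, or non-foamy replicate 1, 3 or 4 (adjusted p up to 0.174). Mcm6, a subunit of the replicative helicase, was at a log2 fold change of -0.16 ± 0.06 (adjusted p = 0.148). Of 25 cyclins, CDK inhibitors and E2F factors 4 were called, all lower, against the same 1.14% of all genes. The count was 2 without foamy replicate 1, 1 without foamy replicate 2, 1 without non-foamy replicate 1 and 2 without non-foamy replicate 4. The mitotic and S phase cyclins Ccnb1 and Ccna2 fell by 0.28 and 0.24, and the G1 cyclin Ccnd2 by 0.41 on the log2 scale (adjusted p = 0.0192, 0.0436 and 0.019). Ccnb1 lost its call without foamy replicate 1 or 2, or non-foamy replicate 1 (adjusted p up to 0.0974), Ccna2 without foamy replicate 1, 2 or 3, or non-foamy replicate 1, 2 or 4 (adjusted p up to 0.143) and Ccnd2 without foamy replicate 2, or non-foamy replicate 1 or 4 (adjusted p up to 0.0818). Cdkn1a encodes p21, an inhibitor of cyclin-dependent kinases and a known p53 target, and it fell as well: 56.6, 56.2, 52.5 and 56.3 CPM in foamy and 70.4, 74.6, 68.8 and 65.04 CPM in non-foamy libraries (log2 fold change -0.33 ± 0.07 (SE), adjusted p = 0.00625), a call that held with any single WT library left out. Cdkn1b, which encodes the inhibitor p27, was at a log2 fold change of 0.19 ± 0.07, and the G1 cyclins Ccnd1 and Ccne1 at -0.35 ± 0.10 and -0.35 ± 0.14 (adjusted p = 0.124, 0.0702 and 0.195). In these bulk libraries fewer dividing cells and less RNA of these genes per cell cannot be told apart.

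Promoters of mitotic genes are shown because many of them carry CCAAT boxes bound by NF-Y beside the cell cycle genes homology region (CHR, TTTGAA or TTCAAA), which the DREAM and MuvB complexes bind. Capitals mark both kinds of match in bases before the RefSeq starts of Cdk1 and Lbr (GRCm38.p6). The Lbr stretch lies within the longer span given above, whose start is further upstream, and in no annotated exon.
Cdk1: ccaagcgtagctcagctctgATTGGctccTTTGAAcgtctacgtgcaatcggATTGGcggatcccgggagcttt
Lbr: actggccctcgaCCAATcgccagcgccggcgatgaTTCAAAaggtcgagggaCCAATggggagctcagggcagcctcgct
The stretches are Cdk1 chr10:69352939-69353012 on the reverse strand and Lbr chr1:181842402-181842481 on the reverse strand. Of 47 G2 and mitosis genes with a window 33 held TTTGAA and 36 held CCAAT on either strand, against 14.8% and 43.2% of all tested genes with a window. Of 31 S phase genes with a window 5 held TTTGAA and 21 held CCAAT. Among the 19 called mitotic genes with a window 13 held TTTGAA, near the share of the whole list.

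Stress response genes were called in both directions. Of 26 tested genes of the unfolded protein and integrated stress responses 4 were called, against 2.8% of all tested genes. Atf3, a stress-induced repressor of inflammatory genes, was at 180.3, 196, 188 and 171 CPM in foamy replicates 1 to 4 and 133, 149, 158 and 136 CPM in non-foamy replicates 1 to 4 (log2 fold change 0.36 ± 0.06 (SE), adjusted p = 0.00222), called in all 8 fits with 1 WT library left out. Ppp1r15a, which encodes the phosphatase subunit GADD34, rose by a log2 fold change of 0.30 ± 0.08 (adjusted p = 0.0338), a call lost without foamy replicate 1, 2 or 3, or non-foamy replicate 1, 2 or 4 (adjusted p up to 0.123). Asns, asparagine synthetase and a target of ATF4, was at 43.6, 49.8, 47.8 and 51.1 CPM against 61.4, 60.5, 61.7 and 60.02 CPM (log2 fold change -0.34 ± 0.06 (SE), adjusted p = 0.00336), and Sdf2l1, a chaperone cofactor of the endoplasmic reticulum, fell by 0.24 on the log2 scale (adjusted p = 0.0433), a call lost with any 1 WT library left out (adjusted p up to 0.116). Atf4 was at a log2 fold change of -0.16 ± 0.06 (adjusted p = 0.117). A list of amino acid transporters and of serine and one-carbon enzymes, which does not hold Asns, had 2 of 17 genes called, both lower. Its median was -0.17, and 1.14% of all tested genes were called lower. Mthfd2, the mitochondrial folate enzyme, was at 43.99, 46.6, 45.4 and 51.8 CPM in foamy and 60.1, 61.6, 61.3 and 60.3 CPM in non-foamy libraries (log2 fold change -0.37 ± 0.07 (SE), adjusted p = 0.00491). Psat1, of serine synthesis, fell by 0.28 on the log2 scale (adjusted p = 0.00661), and Phgdh, the first enzyme of that route, was at a log2 fold change of -0.23 ± 0.08 (adjusted p = 0.115). The Mthfd2 and Psat1 calls held with any single WT library left out, and that of Psat1 was lost in the fit on the WT libraries only (adjusted p = 0.0533). No heat shock chaperone of 13 tested was called by edgeR, 4 had an unadjusted p under 0.05, DESeq2 called 2 and voom called 3. No gene of glycolysis and hypoxia of 22 tested was called by edgeR, 2 had an unadjusted p under 0.05, DESeq2 called 1 and voom called 2.

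The remaining lists held at most 2 edgeR calls each with all libraries, where 1.66% of all tested genes were called higher and 1.14% lower. No complement or Fc receptor gene of 17 tested was called by edgeR, 3 had an unadjusted p under 0.05, DESeq2 called 0 and voom called 3; without non-foamy replicate 3 edgeR called 3, all higher, Fcgr4 and C3ar1 among them (adjusted p = 0.0119 and 0.0276). Of 16 matrix metalloproteases, integrins and their inhibitors Timp2 was called. Among 31 tested replication-dependent histone genes 2 were called, both of linker histone H1 and both higher. H1f2 was at 47.3, 56.97, 52.98 and 46.4 CPM in foamy and 34.98, 34.8, 42.3 and 38.6 CPM in non-foamy libraries (log2 fold change 0.44 ± 0.07 (SE), adjusted p = 0.00186), while H1f4 rested on 4 to 35 counts per library and lost its call without foamy replicate 1, 2 or 3, or non-foamy replicate 1, 2, 3 or 4 (adjusted p up to 0.119). A core histone gene, H4c9, was at a log2 fold change of -0.28 ± 0.10 (adjusted p = 0.118). Replication-dependent histone RNAs lack a poly(A) tail, so their level in a library depends on how RNA was selected. With all libraries, edgeR called no ribosomal protein gene of 88 tested, and the median was 0.04. Of the 88, 3 had an unadjusted p under 0.05, DESeq2 called 1 and voom called 4. Calls of these genes in other fits are given below. No mitochondrially encoded gene of 13 tested was called by edgeR with all libraries, 2 had an unadjusted p under 0.05, DESeq2 called 0 and voom called 0. In the mitochondrial list foamy replicate 3 held 121 CPM of mt-Nd3, where the other WT libraries held 0.483 to 1.57 CPM.

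The libraries differed in how their counts ran with gene length, and the WT comparison was read with and without that difference. For each library, the log2 level of each gene was set against the mean of the group's other 3 libraries, and the median of this difference was taken in 10 bins of tested genes ordered by exonic length, with about equal numbers of genes. Non-foamy replicate 3 was 0.23 above its group in the bin of shortest genes and 0.16 below it in the bin of longest genes, a difference between longest and shortest of -0.39 on the log2 scale. The other non-foamy replicates, 1, 2 and 4, had differences of 0.07, 0.09 and 0.22. Foamy replicate 1 had the opposite trend, 0.31, and foamy replicates 2, 3 and 4 had 0.01, -0.19 and -0.13. Each library is part of the reference for the others of its group, so that 1 library with a strong trend moves the rest the other way. Non-foamy replicate 3 was also the library with the fewest counts, and voom gave it and foamy replicate 1 the lowest quality weights, 0.389 and 0.432.

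**Figure D3:**
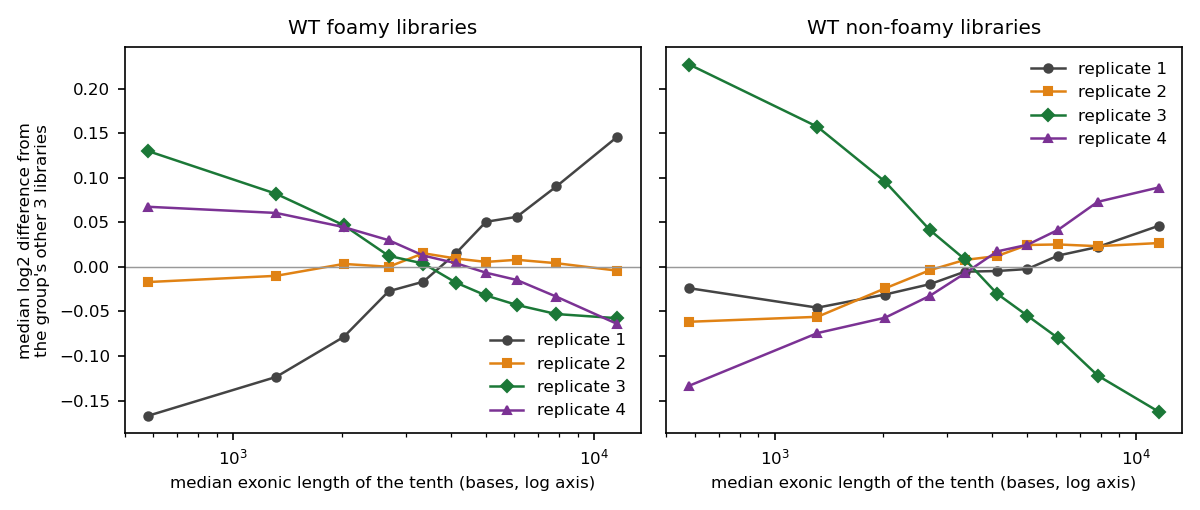
Median log2 difference of each WT library from the other 3 libraries of its group, in 10 bins of tested genes by exonic length, plotted at the median length of each bin. Non-foamy replicate 3 falls from 0.23 to -0.16 and foamy replicate 1 rises from -0.17 to 0.15.

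The split of calls between directions differed with length. In the bin of longest genes 37 were called higher and 5 lower, and in the shortest bin 4 higher and 5 lower, with median log2 fold changes of 0.06 and 0.00. Without non-foamy replicate 3 the longest bin had 23 higher and 12 lower and the shortest 13 higher and 3 lower. With the length and GC trends removed, the longest bin had 47 higher and 56 lower and the shortest 19 higher and 24 lower. Leaving out non-foamy replicate 3 kept 308 of the 399 calls (77.2%), all in the same direction, and added 140. The 49 rises that were lost had a median exonic length of 5526 bases and the 78 rises that were gained 3265 bases. Among falls the order was the other way, with 3180.5 bases for the 42 lost and 4872 bases for the 62 gained. The median over all tested genes was 3710.0 bases. Removing the trends on length and GC content from every library kept 389 of the 399 calls, all in the same direction, and called 1107 genes. Without non-foamy replicate 3 and foamy replicate 1 together, 709 genes were called, 469 higher and 240 lower. The part of fragmentation, RNA quality or library preparation in these trends was not tested, and no batch is labelled.

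**Figure D4:**
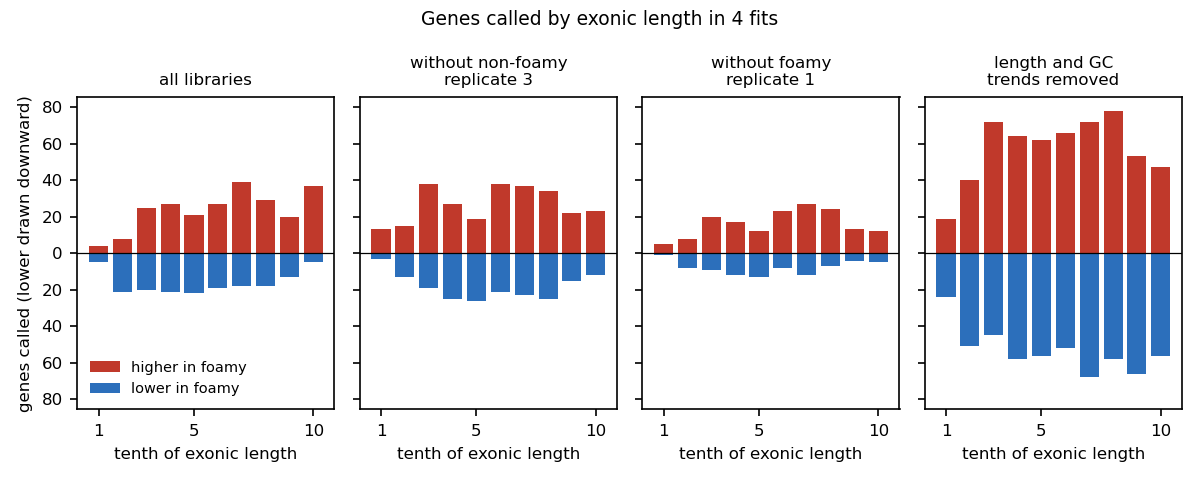
Number of genes called in each of 10 bins of exonic length (1 the shortest, 10 the longest), higher in foamy drawn upward and lower drawn downward, in 4 fits. With all libraries the bin of longest genes holds 37 rises and 5 falls; without non-foamy replicate 3 it holds 23 and 12, and with the length and GC trends removed 47 and 56.

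The gene groups responded unequally to these settings. The mitotic median was -0.22 with all libraries, -0.22 without non-foamy replicate 3 and -0.20 with the trends removed, and the hydrolase median was 0.15, 0.15 and 0.17. Called members of the hydrolase list, Sgpl1 included, numbered 5, 10 and 19 in these 3 fits, and calls of type I interferon-stimulated genes 1, 1 and 2. The ribosomal protein genes moved by more than these medians: 72 of 88 had a positive sign and a median of 0.04 with all libraries, and 86 of 88 and 0.16 without non-foamy replicate 3. Without foamy replicate 3 the sign turned, with 30 of 88 positive and a median of -0.02. Without non-foamy replicate 3 edgeR called 0 of the 88, and 48 had an unadjusted p under 0.05. With the trends removed it called 5 higher and 2 lower. In a fit chosen after seeing the data, without non-foamy replicate 3 and foamy replicate 1 together, it called 58, all higher. The median of mitochondrially encoded genes was 0.05 with all libraries, 0.17 without non-foamy replicate 3 and -0.07 without foamy replicate 3, and that of replication-dependent histones was 0.03, 0.18 without non-foamy replicate 3 and -0.05 without non-foamy replicate 4. In the fit on the WT libraries only, edgeR called no gene of cholesterol esters and droplets or of autophagy. Of these lists 5 and 4 genes had an unadjusted p under 0.05. On all 15 libraries edgeR called 2 and 1 of them, DESeq2 3 and 2 and voom 3 and 4. In the edgeR fit on the WT libraries only, the LXR list had 5 calls, cyclins 2, NF-κB feedback 1, lipid-associated markers 2 and sterol synthesis 14. Of the 94 named genes called with all libraries, 82 kept their call without non-foamy replicate 3 and 94 with the trends removed. Among others, Il1a, Selenop, Slc40a1, Slfn2, Cd274, Ccl9, Ccl3, Il1r2, Atp6v0d2, Lbr, Aurka, Cdkn1a, Atf3 and Mthfd2 were called in all 3 fits. Of the genes just listed, Il1a lost its call in the edgeR fit on the WT libraries only (adjusted p = 0.0788). Prdm1 and Slc36a2, also called in all 3 fits, lost theirs there too (adjusted p = 0.108 and 0.112).

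**Figure D5:**
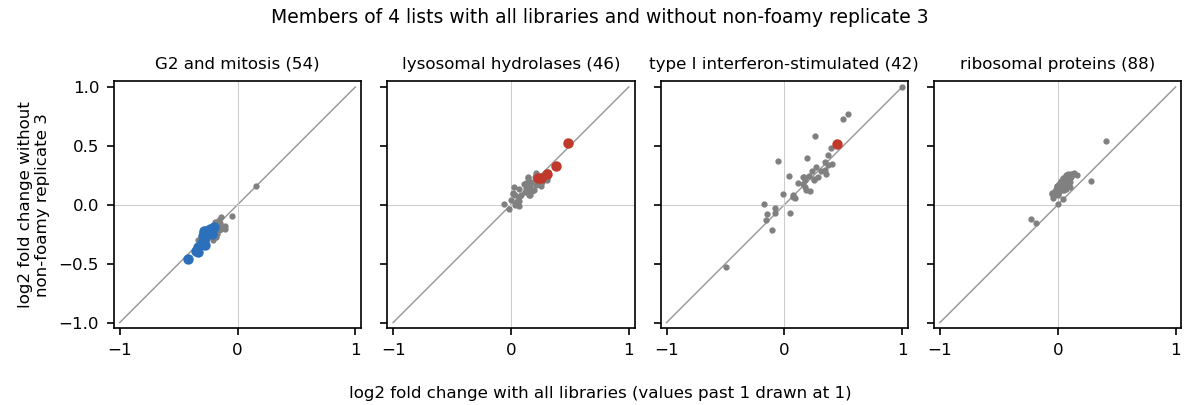
Log2 fold change of each tested member of 4 lists with all libraries (horizontal) and without non-foamy replicate 3 (vertical); coloured points were called with all libraries, the number tested is in parentheses, and the diagonal marks equal values. Mitotic and hydrolase genes stay near the diagonal, while most ribosomal protein genes lie above it.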

How the data were processed

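Total RNA of WT and Trem2-/- BV2 cells was made into TruSeq libraries. Per the labels and the study's methods, the authors used Trimmomatic, HISAT2 (GRCm38) and featureCounts (Ensembl genes) in turn; strand and multimapping settings are not given in the sources used here. The deposited values were whole read counts per gene and library, not normalized.

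Counts of all 15 libraries were fitted with edgeR 4.0.16 in R 4.3.3, with 1 mean per group, TMM scaling, filterByExpr at a minimum count of 10 and the quasi-likelihood test, and p-values were adjusted by Benjamini-Hochberg over the 14237 tested genes. The tested genes held 99.97% of counts, and the biological coefficient of variation was 10.2%. The script was tested on simulated data. DESeq2 1.42.0 and voom (limma 3.58.1) were alternatives, as were other scalings and filters, WT libraries only, a replicate block, removal of a smooth trend on exonic length and GC content from each library, and leaving out each WT library.

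Genes named were the 15 largest rises and 15 largest falls among calls that averaged 1 CPM or more without overlap between groups, members of the lists, and Trem2. The members and lists were chosen with earlier results of these data known. Some items are not reported here.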

Additional observations from a re-analysis of the deposited data

Results flagged for a closer look

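Of 264 groups of 4 WT libraries examined, taken over the genes named in the text, 18 held a library whose gap to the next exceeded the limit for an outlier at the 95% level, where chance flags about 1 group in 20. Non-foamy replicate 3 was the library in 8 of the 18 groups. In these it was high, against the other 3 non-foamy libraries, for Atp6v0d2 (194 CPM, against 157 to 160.5 CPM), Ctsk (3179 CPM, against 2678 to 2760.0 CPM), Ctss (2077 CPM, against 1679 to 1746 CPM), Il15 (32.4 CPM, against 24.8 to 25.4 CPM) and Gm3571 (36.7 CPM, against 30.5 to 31.5 CPM). It was low for Abcg1 (34.4 CPM, against 45.05 to 45.9 CPM), Lbr (47.9 CPM, against 54.2 to 55.4 CPM) and Mertk (25.2 CPM, against 30.4 to 31.4 CPM). For Abcg1, Lbr and Mertk the adjusted p without this library was 7.97e-05, 0.000495 and 0.000397, and for Atp6v0d2 and Ctsk 7.97e-05 and 0.000842.

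The other 10 groups were spread over 6 libraries. Among foamy libraries, replicate 1 was high for Slc36a2, an amino acid transporter (2.78 CPM, against 1.69 to 1.86 CPM), and for 5830418P13Rik (5.22 CPM, against 4.19 to 4.303 CPM), replicate 2 was high for Lipa (268 CPM, against 246 to 248 CPM), and replicate 3 was low for Cdkn1a (52.5 CPM, against 56.2 to 56.6 CPM). Among non-foamy libraries, replicate 1 was high for Klhl38 (2.15 CPM, against 1.41 to 1.496 CPM), replicate 2 for Hexa (598 CPM, against 555 to 559 CPM) and Cdkn1b (35.6 CPM, against 32.8 to 32.9 CPM), and replicate 4 for Rrm2 (48.2 CPM, against 42.2 to 43.1 CPM).

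The remaining groups were of mitochondrially encoded genes. Foamy replicate 3 held mt-Nd3 at 121 CPM, against 0.483 to 1.57 CPM over all other foamy libraries, and non-foamy replicate 4 held mt-Atp6 at 114 CPM, against 23.6 to 37.4 CPM. For both genes nearly all exonic sequence is shared with other transcripts (97.99% and 99.5% of 50-base words), and neither was called.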

How the results depend on the processing

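Against 399 (237 higher, 162 lower) with all libraries, DESeq2 called 896 (423 higher, 473 lower), voom with library weights 953 (487 higher, 466 lower), edgeR without a filter on low counts 607 (359 higher, 248 lower), edgeR on the WT libraries only 142 (82 higher, 60 lower), and edgeR on total counts 428 (179 higher, 249 lower). With the length and GC trends removed it was 1107 (573 higher, 534 lower). Asking also for an absolute log2 fold change of 1 left 15 (12 higher, 3 lower). In alternatives chosen after seeing the data, it was 1318 (698 higher, 620 lower) without non-foamy replicate 3 and with both trends removed, and 709 (469 higher, 240 lower) without non-foamy replicate 3 and foamy replicate 1. With 1 WT library left out, the count ran from 147 to 527, rises from 91 to 299 and falls from 56 to 228. Scaling by size factors (RLE) and a minimum of 10 counts kept the counts within 1.5 times.

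Same-numbered foamy and non-foamy libraries did not deviate together in every pair, with correlations of 0.09, 0.03, 0.14 and -0.06. These values cannot tell whether same-numbered libraries share a culture or a batch, and the labels do not say. With a replicate block edgeR called 591 (321 higher, 270 lower), and with the block and both trends removed 1354 (652 higher, 702 lower).

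Of the genes named in the text, 94 were called. Over their alternatives, 1630 values kept direction and side of the threshold, 248, in 43 genes, kept direction and missed the threshold, and no called gene changed sign. In the edgeR fit on the WT libraries only, 59 of the 94 kept their call and 35 missed the threshold (adjusted p from 0.0533 to 0.141). The 35 included Il1a, Psat1, Slc36a2, Prdm1, Apoe, Soat1, Nceh1, Ier3, Tnfaip2, Psap, Galc, Ids, Hexa, Atp6v1b2, Ctsk, Ctsb and Ctsh. They also included Apoc4, Atg13, Hells, Rrm2, Nasp, Cdk1, Ccnb1, Ccna2, H1f4, Ppp1r15a, Sdf2l1, Vash2, 1810034E14Rik, Gng4, Klhl38, 5830418P13Rik, Gm15513 and St3gal6. Among 38 named genes without a call, 147 values in 32 genes passed the threshold in the same direction. Sign changed for 3, none of them called, with 1 library left out: over the 8 such fits the log2 fold change of Fth1 ran from -0.012 to 0.158, that of Ftl1 from -0.033 to 0.116 and that of mt-Nd3 from -0.26 to 5.32, the low end of the last being without foamy replicate 3.

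The comparison holds 1 cell line, 1 dose and 1 time, and no library with carrier alone.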

Other observations

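Some called genes outside the lists concern phagocytosis, migration and polyamines; they were chosen after their values were seen. Mertk, a receptor for the uptake of apoptotic cells and a known LXR target, was at 51.5, 44.7, 40.8 and 37.8 CPM in foamy replicates 1 to 4 and 30.4, 30.4, 25.2 and 31.4 CPM in non-foamy replicates 1 to 4 (log2 fold change 0.57 ± 0.08 (SE), adjusted p = 0.000279). Mrc1, the mannose receptor CD206, was at 47.8, 47.7, 48.98 and 51.3 CPM against 37.9, 38.8, 39.2 and 39.9 CPM (log2 fold change 0.33 ± 0.06 (SE), adjusted p = 0.00157). Mpeg1, the pore-forming perforin-2 of macrophages, was at 303, 345, 332 and 309.9 CPM against 239, 241, 242 and 239 CPM (log2 fold change 0.43 ± 0.06 (SE), adjusted p = 0.00019). These 3 receptors and effectors of phagocytes were higher in each foamy library than in each non-foamy one.

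Cxcr4, the receptor for CXCL12, was at 41.2, 48.9, 47.7 and 45.2 CPM in foamy and 34.98, 35.7, 35.6 and 33.5 CPM in non-foamy libraries (log2 fold change 0.39 ± 0.06 (SE), adjusted p = 0.000737), and Cd14, the co-receptor for lipopolysaccharide, was at a log2 fold change of -0.29 ± 0.05 (adjusted p = 0.00284). Odc1, the first enzyme of polyamine synthesis, was at a log2 fold change of -0.39 ± 0.06 (adjusted p = 0.000359), and Tsc22d3, which encodes the glucocorticoid-induced leucine zipper, at 0.47 ± 0.07 (adjusted p = 0.000259) by edgeR. The calls of all 7 genes held with any single WT library left out.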
